A study of Mus musculus with 12 samples.

Results

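The effect of a high fat diet on endothelial cells of the mesentery was measured by bulk RNA-seq in 6 samples, 3 from mice on normal chow and 3 from mice on the high fat diet, out of 12 samples in the series. All samples came from male mice of the genotype ROSA26-eYFP+/+ Cdh5-CreERT2+, in which tamoxifen switches on YFP in cells with an active Cdh5 promoter, the promoter of the endothelial adhesion molecule VE-cadherin. The mice ate a tamoxifen diet for 2 weeks from the age of 6 weeks. From 8 weeks they ate either chow with 5.8% fat or a diet with 60% fat, for 12 to 13 weeks. Mesentery was digested with Liberase together with the transcription blocker actinomycin D, red blood cells were lysed, and YFP-positive cells were sorted. The tissue of 6 mice was pooled for each sample, so that a value is an average over a pool. The titles give 3 replicate letters (A, B and C) a group, whereas the protocol speaks of 2 independent replicates, so that p-values measure the spread between these samples, part of which may be technical. The libraries are numbered 50, 51 and 87 (chow A, B and C) and 88, 52 and 53 (high fat A, B and C), so that chow C and high fat A stand apart in number, and the labels do not say whether the 2 number ranges are the 2 replicates. The other 6 samples, from epididymal fat and bearing the same library numbers, served only for a comparison of the diet effect between tissues.

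The mesentery is the membrane that carries the arteries, veins and lymphatic vessels of the gut, and in the mouse it holds fat depots and lies beside the pancreas. Its endothelium takes up fatty acids from the blood and passes them to the tissue. PPARs are nuclear receptors that bind fatty acids and switch on genes of fat transport, storage and oxidation, and the aryl hydrocarbon receptor (AHR) is a ligand-activated transcription factor whose best known target is Cyp1a1. Vessel walls also hold pericytes and smooth muscle, which set tone, and fat tissue of obese animals gathers macrophages that take up lipid.

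Of 27825 genes in the deposited table, 22057 had a mean of at least 10 normalized counts over the 6 mesentery libraries and were tested (limma on log2(normalized count + 1), adjusted p under 0.05 after Benjamini-Hochberg adjustment). Values are given as normalized counts for replicates A, B and C in that order, and they are not scaled by gene length, so that levels of different genes cannot be compared. Library totals ran from 8348897 to 18787039 reads, lowest in chow library C. That library stood apart: its correlation with the other 5 on the log2 scale was 0.730 to 0.782, against 0.815 to 0.926 among those. It also had the most reads of 671 olfactory and vomeronasal receptor genes, 3105 CPM against 253 to 1938 in the others. The defining endothelial markers were present in every library: Pecam1, an adhesion molecule, had 12596, 12974 and 11417 normalized counts on chow against 9680, 10307 and 10066 on the high fat diet, and Cdh5 had 4046, 4822 and 2657 on chow against 2948, 2680 and 2876 on high fat. All 3 Pecam1 values were lower on the high fat diet, but the difference did not pass (log2 change -0.30, SE 0.19, limma adjusted p 0.998). In bulk samples, fewer cells of a type and less RNA per cell cannot be told apart.

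Cyp1a1 (ENSMUSG00000032315), the cytochrome P450 that oxidizes polycyclic aromatic compounds, was the 1 gene that changed by the test (0.00453% of the genes tested). It had 1685, 1852 and 3980 normalized counts on chow and 12.2, 2.77 and 10.9 on the high fat diet. The high fat values of Cyp1a1 stood for 13, 2 and 11 reads and the chow values for 1480, 2067 and 2827, so the groups lay far apart. Cyp1a1 fell by 8.11 on the log2 scale (SE 0.54, 276-fold lower on the log2(value + 1) scale; limma adjusted p 0.000601). The call was lost with libraries numbered 50 to 53 alone, 2 a group (adjusted p 0.21), and without the mean-variance trend (adjusted p 0.353), with log2 changes of -8.04 and -8.11, and held in the other 19 alternatives. In epididymal fat it had 382, 219 and 833 normalized counts on chow and 0, 3.30 and 9.91 on the high fat diet (log2 change -6.84, SE 0.81, adjusted p 0.00272), and a difference of the diet effects between the tissues did not pass (adjusted p 0.999).

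The 250 bases before the start site of Cyp1a1 and of a second AHR target, Cyp1b1, are shown. Both carry the core of the AHR binding sequence, and only Cyp1a1 passed the test. The sequences are from RefSeq on build GRCm38.p6, 5′ to 3′ on the gene's strand, and capitals mark GCGTG or its reverse complement CACGC.
Cyp1a1 (chr9:57697363-57697612, plus strand): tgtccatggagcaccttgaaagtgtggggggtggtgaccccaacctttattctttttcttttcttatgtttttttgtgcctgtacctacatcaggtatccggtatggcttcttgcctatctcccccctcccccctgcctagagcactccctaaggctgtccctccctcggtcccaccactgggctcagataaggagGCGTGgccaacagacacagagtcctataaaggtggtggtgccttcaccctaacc
Cyp1b1 (chr17:79715062-79715311, minus strand): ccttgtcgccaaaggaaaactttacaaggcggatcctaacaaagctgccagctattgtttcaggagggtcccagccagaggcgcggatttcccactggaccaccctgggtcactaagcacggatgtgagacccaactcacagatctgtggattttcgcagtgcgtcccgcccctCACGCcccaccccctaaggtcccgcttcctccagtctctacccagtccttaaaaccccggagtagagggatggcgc
The match began 54 bases before the start in Cyp1a1 and 76 bases before it in Cyp1b1. Ahrr, the AHR repressor, had 3 matches, Tiparp, an AHR target that modifies the receptor, had 1, and Nqo1, a quinone reductase, had none. The letters were present in 28.2% of 32851 such windows and in 7 of 12 windows of 11 AHR list genes, as well as in 15 of 21 windows of the clock list and 12 of 27 of the PPAR list, and a match describes the letters and shows no binding.

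Other AHR genes were measured beside Cyp1a1. Of the 14 tested members of the AHR list, 2 had an unadjusted p under 0.05, both lower (all genes tested: 1.97% lower), and the list's median log2 change was 0.09, against -0.01 over all genes tested. That median was negative in 6 of the 21 alternatives (range -0.11 to 0.28). The second member was Nqo1, with 366, 419 and 473 normalized counts on chow and 220, 247 and 356 on the high fat diet. Its groups did not overlap, but it did not pass (log2 change -0.63, SE 0.26, limma adjusted p 0.998). Cyp1b1 had 12.5, 5.38 and 77.4 normalized counts on chow against 45.8, 29.1 and 69.2 on the high fat diet, and Ahrr 11.4, 0.896 and 141 on chow against 19.6, 2.77 and 39.5 on high fat. The groups overlapped in both. The receptor itself, Ahr, also overlapped, with 2216, 2653 and 1405 normalized counts on chow against 1662, 2017 and 1641 on high fat.

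**Figure D1:**
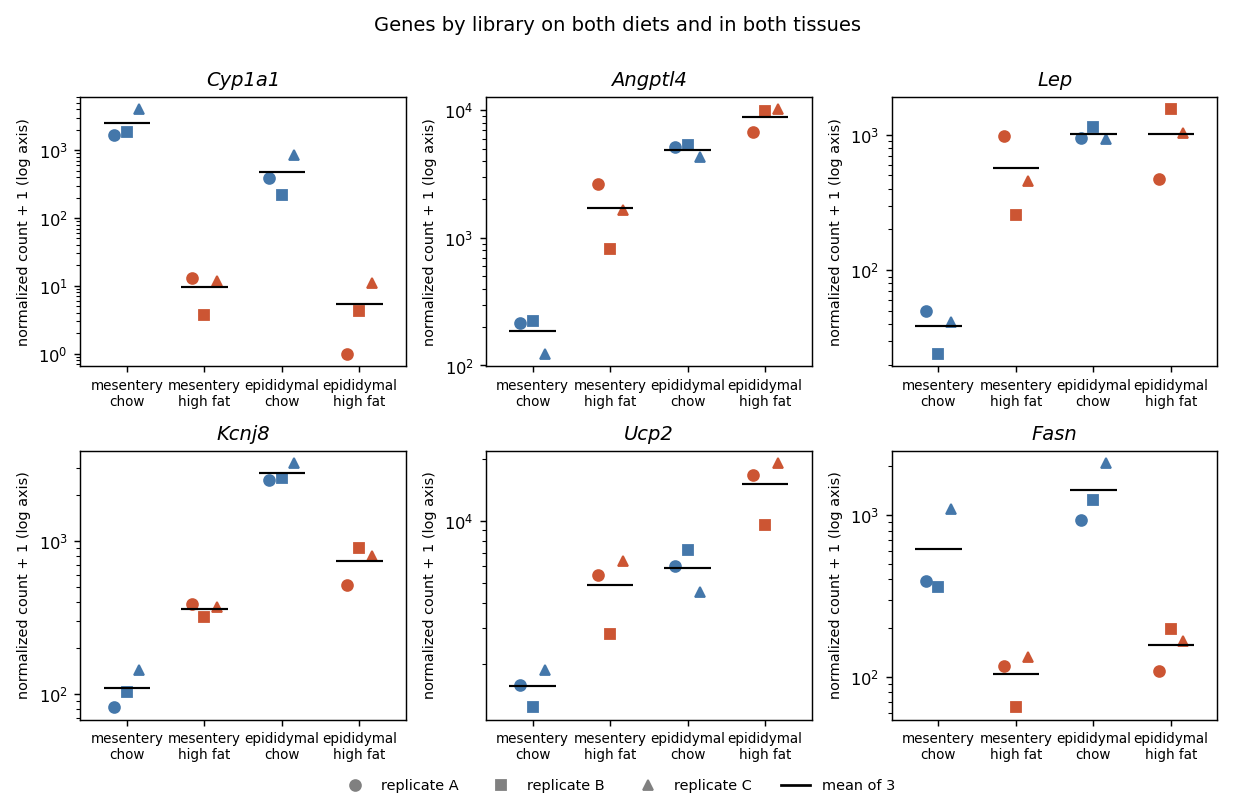
Normalized counts plus 1 (log axis) of 6 genes in the 12 libraries, 3 a group; symbols mark the replicate letter and lines the mean of 3. In mesentery the diet groups do not overlap for any of the 6 genes, and Kcnj8 is higher on the high fat diet in mesentery and lower in epididymal fat.

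Beyond Cyp1a1, no gene passed, and 941 genes had an unadjusted p under 0.05, which is 4.27% of those tested and under the 5% that this threshold passes where no gene differs. By direction, 507 were higher on the high fat diet (2.3%) and 434 lower (1.97%), so that 53.9% were higher. That share rested on the scaling: it was 85.4% with libraries rescaled to the same total, a setting that moved the median log2 change of all genes from -0.01 to 0.12, and 65.6% when mitochondrial and pancreas genes were left out of the total. It also moved with single libraries, from 40.1% without high fat library C and 47.6% without high fat library A to 67.2% without chow library B, and was 42.2% with libraries numbered 50 to 53 only. The diet groups did not overlap in 968 genes higher on the high fat diet (4.39%) and in 1141 lower (5.17%). DESeq2 on the recovered reads called 47 genes, 37 higher and 10 lower, all of which had an unadjusted limma p under 0.05, and edgeR's quasi-likelihood test called Cyp1a1 alone. The following gene groups are described by counts of members against these shares, with no test of the group.

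**Figure D2:**
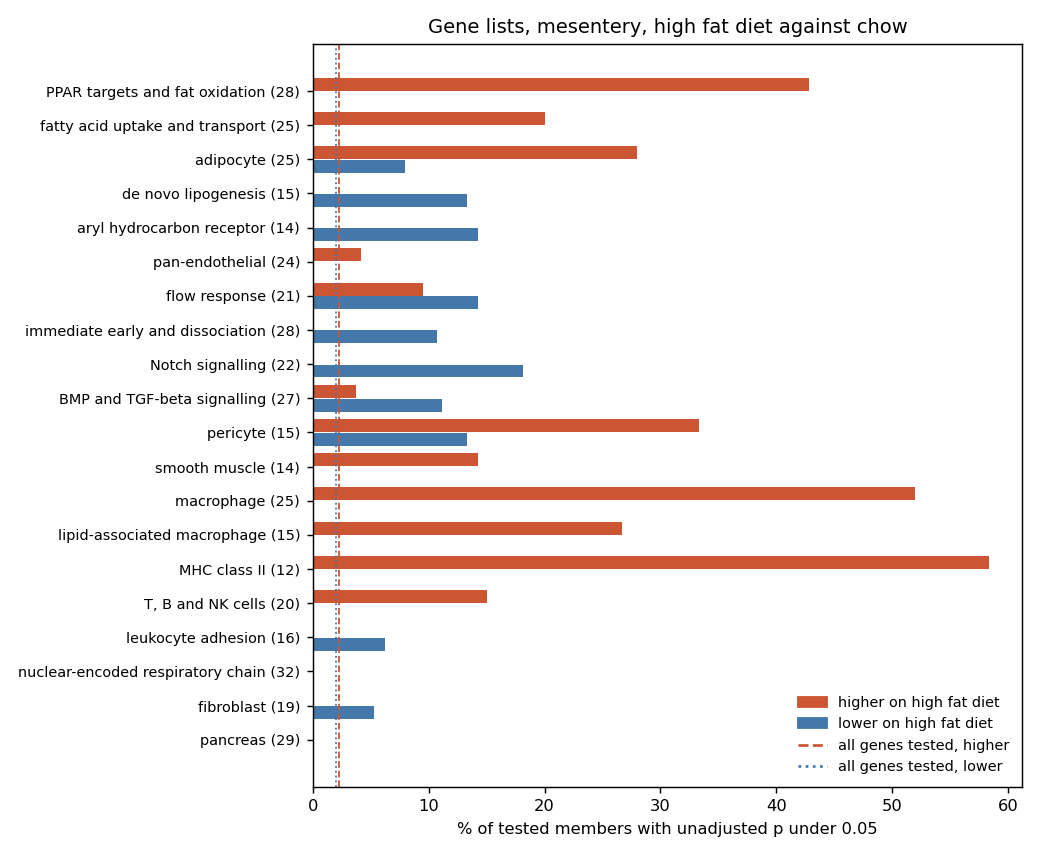
Share of tested members (number in brackets) with an unadjusted limma p under 0.05, higher (red) or lower (blue) on the high fat diet, for 20 gene lists. Dashed and dotted lines mark the shares over all genes tested, 2.3% higher and 1.97% lower.

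Genes that PPARs switch on and genes of fatty acid oxidation mostly had higher values on the high fat diet. Of 28 tested members of that list, 24 had a positive log2 change, and the median log2 change was 0.44. By an unadjusted p under 0.05, 12 were higher and none was lower (all genes tested: 2.3% higher and 1.97% lower). In 14 members all 3 high fat libraries lay above all 3 chow libraries, and in 1 all lay below (all genes tested: 4.39% above and 5.17% below). Across the 21 alternatives, between 7 and 15 members had an unadjusted p under 0.05 and a higher value. Without chow library C, which stood apart, there were 10, and without high fat library A there were 9.

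Angptl4 (ENSMUSG00000002289), a secreted inhibitor of lipoprotein lipase, had 215, 222 and 122 normalized counts on chow and 2624, 820 and 1650 on the high fat diet. The lowest high fat library, B, lay well above the highest chow library, also B. The log2 change was 3.07 (SE 0.40, 8.42-fold higher), and it did not pass in limma with 6 libraries (adjusted p 0.164). It passed in the fit of all 12 libraries (adjusted p 0.00827), with libraries rescaled to the same total (0.0226) and in DESeq2 (3.76e-10). No other alternative passed, among them edgeR (0.661) and limma without high fat library C (0.906).

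Enzymes of the mitochondrial steps had values in the same direction. Cpt1a, which commits fatty acids to mitochondrial import, had 403, 389 and 360 normalized counts on chow and 788, 626 and 687 on the high fat diet. The groups did not overlap and the chow values lay close together. The log2 change was 0.86 (SE 0.20); DESeq2 called it (adjusted p 0.0363) and limma did not (adjusted p 0.979).

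The carnitine shuttle beyond Cpt1a was represented by Slc25a20, the carrier across the inner membrane, with 366, 466 and 594 normalized counts on chow against 1163, 699 and 785 on the high fat diet, and by Cpt2, which releases the fatty acid inside, with 233, 311 and 251 on chow against 477, 403 and 414 on high fat. Neither overlapped. Acadl, a dehydrogenase for long-chain fatty acids, had 1385, 1207 and 894 on chow against 1675, 1616 and 1866 on high fat, and Decr1, which prepares unsaturated fatty acids for oxidation, had 514, 558 and 476 on chow against 677, 800 and 645 on high fat. High fat values were again all above chow values, by smaller amounts (log2 change 0.59 for Acadl and 0.45 for Decr1). Hadha, a subunit of the trifunctional protein of the same pathway, overlapped (522, 532 and 612 on chow against 551, 366 and 544 on high fat), so the direction was not shared by every enzyme.

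Ucp2, an inner-membrane carrier, had 1583, 1231 and 1872 normalized counts on chow and 5458, 2796 and 6369 on the high fat diet, with no overlap (log2 change 1.58, SE 0.30, limma adjusted p 0.739, DESeq2 0.000183). Pdk4, which holds back glucose oxidation, had 39.9, 66.3 and 57.7 on chow against 136, 165 and 73.1 on high fat. The lipid droplet coat gene Plin2 had 1829, 2138 and 2547 on chow and 9975, 4247 and 3110 on the high fat diet, with high fat library A the highest. Pparg, the receptor of fat storage, was modestly higher in all 3 high fat libraries, with 887, 899 and 935 against 1494, 1361 and 1158 (log2 change 0.55). Ppara had 4.55, 0.896 and 40.8 on chow against 14, 9.70 and 6.92 on high fat and Ppard 43.3, 63.6 and 46.5 on chow against 26.2, 26.3 and 38.5 on high fat. Ppara overlapped, and Ppard was the member whose high fat values all lay below chow.

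**Figure D3:**
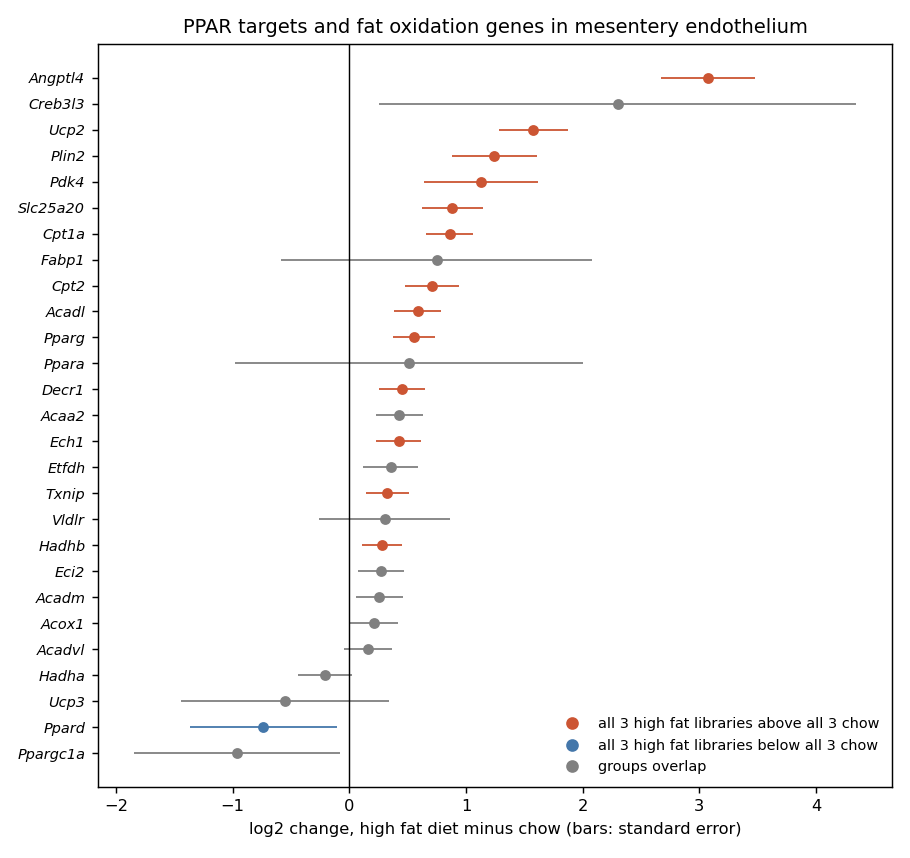
Log2 change (high fat diet minus chow, in mesentery) of 27 of the 28 tested members of the PPAR and fat oxidation list, with standard errors. Red marks the 13 members shown with all 3 high fat libraries above all 3 chow libraries, and 23 of 27 points lie to the right of 0.

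The fatty acid uptake list, which shares Angptl4 with the one above, held fewer such members. Of 25 tested members, 5 had an unadjusted p under 0.05, all higher (all genes tested: 2.3% higher), and the median log2 change was 0.29. The 5 became 3 without chow library A or high fat library A, and without chow library C there were 6 higher and 2 lower members and a median of 0.19. Cd36, the fatty acid translocase of capillary endothelium, had 19127, 18648 and 25640 normalized counts on chow and 42867, 36206 and 35237 on the high fat diet. The groups were clearly separate, and the values were 1.82-fold higher (log2 change 0.86, SE 0.25, limma adjusted p 0.998, DESeq2 0.00138). Dbi, which binds acyl-CoA, had 3358, 4390 and 3982 on chow against 7724, 4692 and 5779 on high fat, and Lrp1, a lipoprotein receptor, had 55.8, 52.9 and 33.8 on chow against 130, 81.8 and 224 on high fat.

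Other carriers in the same list overlapped between diets. Fabp4, the main fatty acid binding protein of capillary endothelium and adipocytes, had 141720, 129380 and 112420 normalized counts on chow and 149290, 113020 and 163410 on the high fat diet. Gpihbp1, which holds lipoprotein lipase on the capillary wall, had 36760, 40171 and 22988 on chow against 31031, 27355 and 23100 on high fat. Neither difference exceeded the spread between libraries (log2 change 0.14, SE 0.37, and -0.26, SE 0.28). Lpl itself had 855, 739 and 1563 normalized counts on chow and 3308, 723 and 2422 on the other diet, with overlap.

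Of 15 tested genes of fatty acid synthesis, 11 had a negative log2 change, with a median of -0.46. An unadjusted p under 0.05 was found for 2, both lower (all genes tested: 1.97% lower). Without chow library C the median was -0.12 and 1 member was higher by that threshold, and the lower members numbered 1 without high fat library C and 4 without chow library B. Fasn, fatty acid synthase, had 389, 356 and 1090 normalized counts on chow and 115, 63.8 and 132 on the high fat diet. Chow library C was the highest, and the other chow libraries also lay above every high fat library. The log2 change was -2.41 (SE 0.45, limma adjusted p 0.739, DESeq2 0.00164), and in epididymal fat Fasn fell by the test (log2 change -3.14, adjusted p 0.00728).

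Thrsp, a regulator of lipogenesis, had 8957, 10539 and 8543 normalized counts on chow and 7321, 5883 and 5420 on the high fat diet, without overlap, and Elovl6, which lengthens fatty acids, had 105, 129 and 341 on chow against 37.4, 99.8 and 95.8 on high fat. The desaturase Scd1 had 947, 952 and 3934 on chow against 2134, 1019 and 1174 on high fat and overlapped. The cholesterol synthesis list of 19 tested genes held 1 member with an unadjusted p under 0.05 (all genes tested: 1.97% lower). This was Stard4, a sterol carrier, with 721, 868 and 710 on chow against 466, 552 and 605 on high fat. The median of that list, -0.18, turned positive in 1 of the 21 alternatives.

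Adipocyte genes were present in the sorted cells and differed among themselves. Of 25 tested members, 7 were higher with an unadjusted p under 0.05 and 2 lower (all genes tested: 2.3% higher and 1.97% lower). The median log2 change was 0.64. Without high fat library A the 7 became 4 and the median 0.16. The summed level of the list was 19164, 18765 and 30051 normalized counts on chow and 50076, 28985 and 25107 on the high fat diet. Chow library C lay above high fat libraries B and C. Of the list, Adrb3 and Pck1 were at 0 in chow library C. Whether adipocyte RNA had a part in these results was not tested.

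Lep (ENSMUSG00000059201), the fat hormone leptin, had 49, 23.3 and 40.8 normalized counts on chow and 974, 256 and 456 on the high fat diet. The high fat values varied widely, yet the lowest, in library B, lay well above the highest chow value. The log2 change was 3.71 (SE 0.51), and it did not pass in the 6 libraries (limma adjusted p 0.181). It passed in 2 of the 21 alternatives, the fit of all 12 (0.0188) and DESeq2 (9.97e-09), and not in edgeR (0.661). In epididymal fat Lep had 947, 1136 and 924 on chow and 467, 1531 and 1029 on the high fat diet, with overlapping groups, and the difference of the diet effects did not pass (adjusted p 0.141). Its promoter is shown because it carries the C/EBP sequence TTGCGCAA, in capitals, found on either strand in 0.164% of the 32851 windows and 55 bases before the start here.
Lep (chr6:29059971-29060220, plus strand, GRCm38.p6, RefSeq): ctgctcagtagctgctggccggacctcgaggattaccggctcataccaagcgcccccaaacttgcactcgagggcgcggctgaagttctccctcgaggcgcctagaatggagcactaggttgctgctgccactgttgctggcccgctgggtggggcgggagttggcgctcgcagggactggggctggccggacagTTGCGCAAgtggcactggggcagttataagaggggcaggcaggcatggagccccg
C/EBP factors act in adipocyte differentiation, and the match was not tested as a site.

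Cidec, which enlarges lipid droplets, had 550, 492 and 780 normalized counts on chow and 4121, 1274 and 1229 on the high fat diet, Car3, a carbonic anhydrase abundant in fat, 5443, 6515 and 7302 on chow against 24662, 15178 and 10436 on high fat, and Pck1, which makes glycerol for triglycerides, 17.1, 42.1 and 0 on chow against 420, 133 and 211 on high fat. All 3 genes were free of overlap and were highest in high fat library A. Adiponectin (Adipoq) had 502, 398 and 808 on chow against 1314, 721 and 912 on high fat, and Plin1, the droplet coat of mature adipocytes, 72.9, 65.4 and 135 on chow against 327, 98.4 and 87 on high fat. These defining adipocyte genes overlapped. Cfd, the protease adipsin secreted by fat, was lower in all 3 high fat libraries, with 2775, 2256 and 3556 on chow and 1158, 1365 and 910 on the high fat diet (log2 change -1.32, SE 0.22, limma adjusted p 0.55, DESeq2 0.000313).

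Genes of endothelial identity mostly had slightly lower values on the high fat diet. Of 24 tested pan-endothelial genes, 18 had a negative log2 change, and the median was -0.30. Only 1 had an unadjusted p under 0.05 (all genes tested: 2.3% higher and 1.97% lower). That gene was Cldn5, the tight junction claudin of endothelium, with 555, 722 and 1383 normalized counts on chow and 6144, 1300 and 2948 on the high fat diet; chow library C overlapped high fat library B. The VEGF receptor Kdr had 24555, 25939 and 11608 on chow against 11799, 15882 and 11410 on high fat, and the other main VEGF receptor, Flt1, had 30275, 33715 and 17039 on chow against 17443, 19502 and 16615 on high fat. In both, chow libraries A and B were high, and chow library C lay within the high fat range. Without chow library C, 8 pan-endothelial genes had an unadjusted p under 0.05 and were lower, against none with it.

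Vessel-type markers lay on both sides. Among 12 venous genes tested, 1 was higher and 1 lower with an unadjusted p under 0.05 (all genes tested: 2.3% and 1.97%). The counts were 1 higher and 2 lower of 20 arterial genes, and 2 higher and none lower of 13 capillary genes. Aplnr, the apelin receptor of veins and sprouting cells, had 1274, 1538 and 1846 normalized counts on chow against 2885, 2553 and 2754 on the high fat diet, and Fbln5, an elastic fibre protein of arterial endothelium, had 2378, 2192 and 1892 on chow against 3411, 4165 and 3643 on high fat. Both were higher in every high fat library by a similar amount (log2 change 0.83 and 0.80), and DESeq2 called both (adjusted p 0.0075 and 0.00245) where limma did not (0.969 and 0.969). Cxcl12, the arterial chemokine, was lower in every high fat library (3774, 3483 and 2493 on chow against 2112, 2424 and 2187 on high fat).

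Of 10 tested lymphatic genes, 1 was higher and 1 lower with an unadjusted p under 0.05 (all genes tested: 2.3% and 1.97%). A positive log2 change was found in 8, and the median was 0.88, positive in all 21 alternatives (0.31 to 2.28). The summed level was 1459, 1569 and 13236 normalized counts on chow against 2986, 4981 and 3497 on high fat, with chow library C far above the rest. Lyve1, a hyaluronan receptor of lymphatic endothelium and of some macrophages, had 9.11, 34 and 69 normalized counts on chow and 108, 315 and 422 on the high fat diet, without overlap (log2 change 3.06, SE 0.75, limma adjusted p 0.998, DESeq2 0.0435). Prox1, the factor that defines lymphatic identity, had 14.8, 10.8 and 19.7 on chow against 0, 31.9 and 79 on high fat, and Pdpn 12.5, 4.48 and 46.5 on chow against 29, 49.9 and 9.88 on high fat. Both overlapped. Flt4, the receptor of VEGF-C, was lower in each high fat library (941, 953 and 848 on chow against 581, 730 and 620 on high fat).

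Genes that blood flow controls were mixed. Of 21 tested flow response genes, 3 were lower and 2 higher with an unadjusted p under 0.05 (all genes tested: 1.97% lower and 2.3% higher). The median was -0.16. Without chow library C 7 were lower, and without chow library A or B or high fat library A or C 1 was; rescaled to the same total, 1 was lower and the median was -0.02. Klf4, a transcription factor that laminar flow induces, had 2099, 2796 and 1856 normalized counts on chow and 1314, 1130 and 1311 on the high fat diet. Thbd, the anticoagulant thrombomodulin and a target of Klf4, had 5483, 5260 and 4878 on chow against 3496, 4200 and 4032 on high fat, and Piezo1, the mechanically gated channel, 535, 568 and 428 on chow against 381, 304 and 372 on high fat. None of the 3 overlapped; the log2 changes were -0.83 (SE 0.20), -0.42 (SE 0.17) and -0.53 (SE 0.22), and DESeq2 called Klf4 (adjusted p 0.0424).

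Other flow genes did not share that pattern. Klf2, the close relative of Klf4, had 4888, 5963 and 3672 normalized counts on chow against 4118, 2962 and 4309 on the high fat diet, and Nos3, endothelial nitric oxide synthase, 1068, 886 and 849 on chow against 965, 845 and 763 on high fat. Both overlapped (log2 change -0.34, SE 0.23, and -0.12, SE 0.19). Hmox1, heme oxygenase, was higher in every high fat library (189, 182 and 182 on chow against 398, 274 and 359 on high fat).

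The immediate early list bears on tissue handling, since digestion can switch these genes on. Here the tissue was digested together with the transcription blocker actinomycin D. Of 28 tested members, 3 were lower with an unadjusted p under 0.05 and none was higher (all genes tested: 1.97% lower and 2.3% higher). The median was 0.02, negative in 4 of the 21 alternatives (down to -0.16). Without chow library C 6 were higher, without high fat library B 3, and with libraries numbered 50 to 53 only 4. The 3 were Klf4, Ier2, which had 2872, 3384 and 4242 normalized counts on chow against 2496, 2602 and 2366 on the high fat diet, and Nr4a1. Nr4a1, an orphan nuclear receptor, had 1380, 2850 and 1419 on chow against 740, 570 and 678 on high fat, and its relative Nr4a2, outside the list, had 391, 635 and 443 on chow against 123, 193 and 208 on high fat. Both were lower in all high fat libraries (log2 change -1.43, SE 0.28, and -1.49, SE 0.30), and DESeq2 called both (adjusted p 0.00304 and 0.0261; limma 0.741 and 0.765). Fos had 1325, 1365 and 4602 on chow against 2563, 2060 and 3735 on high fat, Jun 4362, 4252 and 7120 on chow against 6292, 4418 and 5469 on high fat, and Egr1 729, 1145 and 2434 on chow against 769, 830 and 1210 on high fat. These classical digestion markers overlapped and were highest in chow library C, and their part in the other values was not tested.

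Notch sets arterial fate and restrains sprouting. Of its 22 tested genes, 4 were lower with an unadjusted p under 0.05 and none higher (all genes tested: 1.97% lower and 2.3% higher). The lower numbered 1 without chow library A or high fat library B or C, and 2 without chow library B or high fat library A. The ligand Dll4 had 1951, 2288 and 1523 normalized counts on chow against 1549, 1332 and 1151 on high fat and overlapped. With libraries rescaled to the same total none of the 22 was lower by that threshold, and the median of -0.08 became 0.05. In the BMP and TGF-beta list, 3 of 27 tested genes were lower and 1 higher, with a median of -0.28. Id1, a direct target of BMP receptors, had 18137, 16247 and 10568 on chow and 8356, 11030 and 8371 on the high fat diet, Smad3, a signal transducer of TGF-beta, 116, 125 and 114 on chow against 57, 54.1 and 66.2 on high fat, and Skil, an inhibitor of SMADs, 482, 541 and 470 on chow against 160, 288 and 335 on high fat. Smad3 and Skil did not overlap, whereas Id1 did through chow library C. Without that library, 10 members of this list were lower with an unadjusted p under 0.05, and without chow library A or high fat library A 1 was.

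Pericyte genes included Kcnj8, the 1 gene that passed the test of a tissue difference. Of 15 tested pericyte genes, 5 were higher and 2 lower with an unadjusted p under 0.05 (all genes tested: 2.3% higher and 1.97% lower). The median log2 change was 1.08. The 2 lower became 0 without chow library A or B or high fat library A or B. The summed level was 4539, 4793 and 4266 normalized counts on chow against 6725, 4132 and 6370 on the high fat diet, and these sums overlapped. Kcnj8 (ENSMUSG00000030247), the pore of the ATP-sensitive potassium channel of vessel walls, had 80.8, 102 and 144 on chow and 384, 319 and 369 on the high fat diet. High fat values lay close together and all above chow (log2 change 1.74, SE 0.31). The change did not pass in 6 libraries (limma adjusted p 0.647). It passed in 2 of the 21 alternatives, the fit of 12 (0.0463) and DESeq2 (0.00164), and not in edgeR (0.999).

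In epididymal fat Kcnj8 had 2519, 2568 and 3246 normalized counts on chow and 518, 903 and 793 on the high fat diet. There it fell (log2 change -1.94, SE 0.25, limma adjusted p 0.00408). The diet effect in epididymal fat minus that in mesentery was -3.68 (SE 0.35, limma adjusted p 0.00192), and Kcnj8 was the 1 gene of 22057 to pass that test (0.00453%). Abcc9, the regulatory subunit of the same channel, had 60.4, 22.4 and 134 in mesentery on chow and 78.6, 22.2 and 187 on the other diet, with overlap. In epididymal fat the sum of the pericyte list, which includes Kcnj8, was lower on the high fat diet without overlap. It was 22224, 26611 and 22642 normalized counts on chow against 9057, 15075 and 11899 on high fat.

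Further pericyte genes in mesentery were Rgs5, a regulator of G protein signalling, with 524, 961 and 1033 normalized counts on chow against 2433, 1171 and 2116 on the high fat diet, and Rgs4 of the same family, with 41, 41.2 and 56.3 on chow against 548, 150 and 213 on high fat. Both were higher in every high fat library, and highest in library A. Higd1b, a pericyte marker, had 69.5, 119 and 146 on chow against 320, 237 and 200 on high fat. Notch3, a receptor of mural cells, had 19.4, 11.6 and 46.5 on chow against 36.5, 2.77 and 67.2 on high fat and overlapped. Cspg4, the NG2 proteoglycan of pericytes, was lower in each high fat library (51.2, 38.5 and 71.8 on chow against 2.81, 2.77 and 37.5 on high fat). Its values in high fat libraries A and B stood for at most 3 reads (2.81 and 4.16 normalized counts). No member of the list was at 0 in any mesentery library, and the part of pericyte RNA in the Kcnj8 values was not tested. Of 14 tested smooth muscle genes, 2 were higher with an unadjusted p under 0.05 and none was lower (all genes tested: 2.3% higher). Their median log2 change was 0.66, positive in all 21 alternatives (0.35 to 0.87), and the 2 became 0 without high fat library C. The smooth muscle markers Acta2 (811, 233 and 97.1 on chow against 524, 342 and 1302 on high fat) and Myh11 (70.6, 27.8 and 28.2 on chow against 65.5, 31.9 and 173 on high fat) overlapped.

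Ion channels of the vessel wall otherwise gave single separated members. Of 31 tested, 3 were higher and 2 lower with an unadjusted p under 0.05 (all genes tested: 2.3% higher and 1.97% lower). Kcnn4, a calcium-activated potassium channel of endothelium, had 19.4, 23.3 and 15.5 normalized counts on chow against 87.9, 33.3 and 362 on the high fat diet, and Panx1, which releases ATP, had 70.6, 80.6 and 43.6 on chow against 123, 123 and 142 on high fat. Both were higher in every high fat library. Trpc1, a cation channel, was lower (34.2, 26 and 186 on chow against 3.74, 0 and 14.8 on high fat). The value in high fat library A lay near the level of 3 reads (2.81 normalized counts). Kcnj2, the inward rectifier Kir2.1, had 36.4, 37.6 and 32.4 on chow against 19.6, 11.1 and 123 on high fat, and Trpv4, a calcium-permeable channel, 332, 345 and 156 on chow against 265, 363 and 245 on high fat; neither had an unadjusted p under 0.05.

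**Figure D4:**
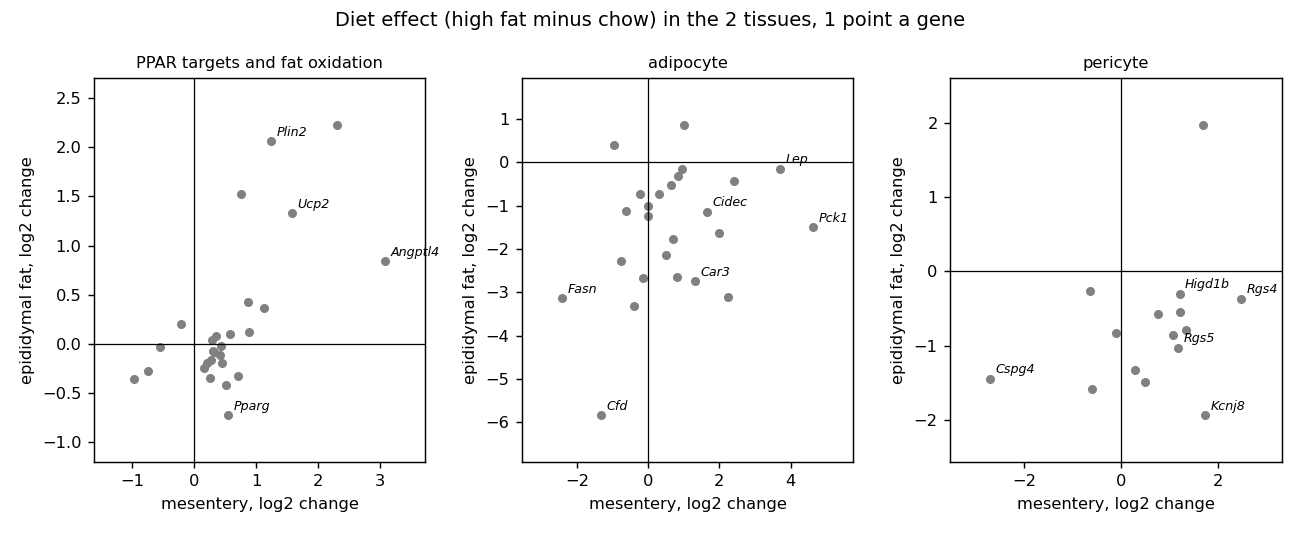
Log2 change (high fat diet minus chow) in mesentery on the x axis and in epididymal fat on the y axis, 1 point a tested gene, for 3 lists (27 of 28 tested members in the PPAR list). Kcnj8 lies at 1.74 in mesentery and -1.94 in epididymal fat, and adipocyte genes such as Cidec and Car3 lie to the right of 0 in mesentery and below 0 in epididymal fat.

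Some adipocyte genes also lay on opposite sides of 0 in the 2 tissues, without a difference that passed. Car3 had a log2 change of 1.30 (SE 0.30) in mesentery and -2.74 (SE 0.54) in epididymal fat, and Adipoq 0.81 (SE 0.30) and -2.65 (SE 0.40). The adjusted p of the difference was 0.154 and 0.138 in limma. Cfd was lower in both, with log2 changes of -1.32 in mesentery and -5.84 in epididymal fat (adjusted p of the difference 0.0648). Among the PPAR targets, Angptl4 had 3.07 and 0.84 (adjusted p of the difference 0.292), and Plin2, with 1.24 and 2.06, was higher in both tissues.

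Macrophage genes were higher on average on the high fat diet, and most of them overlapped between the diets. Of 25 tested members, 13 were higher with an unadjusted p under 0.05 and none lower (all genes tested: 2.3% higher and 1.97% lower). The median log2 change was 1.61. The groups did not overlap in 2 higher members, Csf1r and Lyve1, and in 1 lower (all genes tested: 4.39% higher and 5.17% lower). The summed level was 3322, 3961 and 15493 normalized counts on chow and 25857, 9225 and 37437 on the high fat diet. Chow library C lay above high fat library B, and the count of 13 became 4 without high fat library C, 5 without high fat library A, 8 without chow library A or B and 2 without the mean-variance trend.

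Adgre1, a surface receptor of macrophages, had 33, 0 and 21.1 normalized counts on chow and 229, 26.3 and 137 on the high fat diet, Cd68, a lysosomal protein of phagocytes, 30.7, 60.9 and 405 on chow against 2210, 183 and 1243 on high fat, and Lyz2, lysozyme, 1004, 1210 and 5043 on chow against 11293, 3085 and 17422 on high fat. High fat libraries A and C were the highest 2 in each, and the groups overlapped through chow values at or above high fat library B. Csf1r, the receptor that macrophages need to survive, did not overlap (14.8, 5.38 and 23.9 on chow against 41.2, 63.8 and 289 on high fat). Adgre1 was at 0 in chow library B, and Cd68, Lyz2 and Csf1r were detected in all 6 libraries. The part of macrophage RNA in the results was not tested.

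Genes of lipid-laden macrophages had their highest summed level in high fat library A. Of 15 tested members, 4 were higher with an unadjusted p under 0.05 (all genes tested: 2.3% higher). That count became 2 without high fat library A (median 1.24 to 0.41), 11 without high fat library B and 1 without the mean-variance trend. The summed level was 22321, 21452 and 27193 normalized counts on chow and 79999, 27331 and 42402 on the high fat diet. Gpnmb, a glycoprotein of foam cells, had 21.6, 9.86 and 118 on chow against 7900, 5.54 and 75.1 on high fat, and Mmp12, macrophage elastase, 10.2, 16.1 and 54.9 on chow against 10638, 18 and 136 on high fat. High fat library A stood far above every other library in both, and the groups overlapped through high fat library B in both and through C in Gpnmb. Trem2, the lipid receptor of these cells, had 22.8, 16.1 and 73.2 on chow against 484, 19.4 and 78.1 on high fat, with the same library on top. Atp6v0d2, a subunit of the vacuolar proton pump in macrophages, had 19.4, 0.896 and 28.2 on chow against 1465, 51.3 and 70.2 on high fat and did not overlap. Plin2 belongs to this list too. The part of macrophages in the PPAR and lipid droplet values was not tested. Plin2 was highest in high fat library A, as was the sum of this list. Ucp2 was highest in high fat library C, as was the sum of the general macrophage list (37437 normalized counts).

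MHC class II genes, which present antigen, had their highest summed level, 89471 normalized counts, in high fat library C. All 12 tested members had a positive log2 change, 7 with an unadjusted p under 0.05 (all genes tested: 2.3% higher), and the median was 1.71. Cd74, the invariant chain, had 1487, 1805 and 6420 normalized counts on chow and 4888, 3325 and 41096 on the high fat diet. Chow library C exceeded high fat libraries A and B, and without high fat library C the count of 7 became 1. It became 3 without chow library A or B and 0 without the mean-variance trend. H2-DMb1, which loads peptide, did not overlap (179, 194 and 317 on chow against 596, 338 and 1769 on high fat).

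Lymphocyte genes also had their highest summed level in that library. The summed level of 20 genes was 1632, 2450 and 5420 normalized counts on chow and 6125, 3009 and 250840 on the high fat diet. Jchain, the joining chain of secreted antibodies, had 60.4, 76.2 and 0 on chow against 108, 92.9 and 23381 on high fat, and Ighm, the heavy chain of IgM, 307, 527 and 113 on chow against 2863, 535 and 3072 on high fat. Both were above chow in every high fat library, Jchain was far higher in library C than elsewhere, and Ighm was high in libraries A and C. In the other 5 mesentery libraries the summed level was at most 6125. The T cell receptor component Cd3e had 13.7, 4.48 and 19.7 on chow against 6.55, 18 and 116 on high fat.

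**Figure D5:**
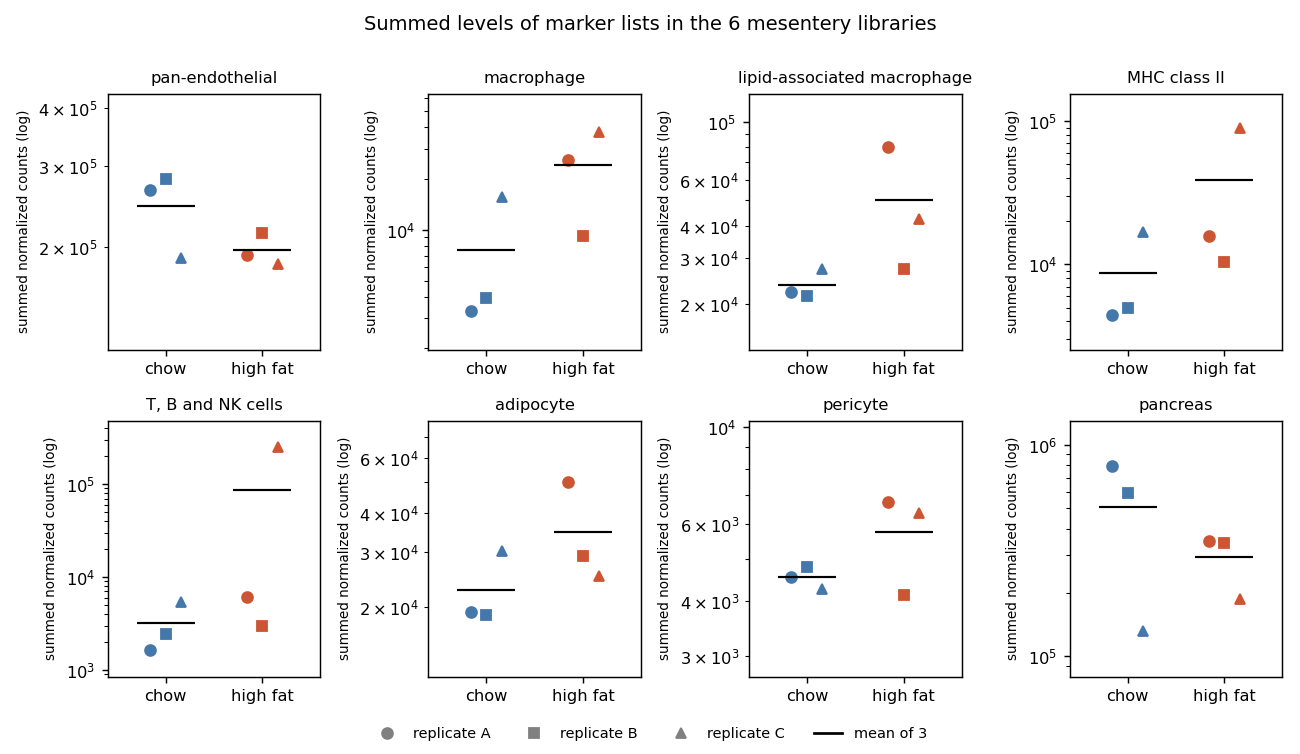
Summed normalized counts (log axis) of 8 marker lists in the 6 mesentery libraries, 3 a diet; symbols mark the replicate letter and lines the mean of 3. Pan-endothelial sums stay within 183850 to 280900, whereas sums of immune lists are highest in high fat library A or C and, among chow libraries, in C.

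Endothelial receptors for leukocytes gave few differences. Of 16 tested members of the leukocyte adhesion list, none was higher with an unadjusted p under 0.05 and 1 was lower (Mcam, 3118, 2942 and 1713 normalized counts on chow against 1481, 1508 and 1857 on high fat). Vcam1 had 172, 162 and 781 on chow and 237, 323 and 556 on the high fat diet, Icam1 642, 694 and 1083 on chow against 869, 581 and 962 on high fat, and P-selectin (Selp) 21.6, 21.5 and 522 on chow against 87.9, 107 and 238 on high fat. All 3 overlapped, and chow library C was the highest of the 6 for each. Of 27 tested chemokines and cytokines, 6 were higher and 2 lower with an unadjusted p under 0.05 (all genes tested: 2.3% higher and 1.97% lower). The 6 became 1 without high fat library C, 2 without high fat library A or chow library A, 3 without chow library B, 12 without chow library C, 2 in edgeR and 1 without the mean-variance trend. The summed level of the list was highest in chow library C, 24884 normalized counts against 12393 to 18564 on high fat. Ccl2, which recruits monocytes, had 104, 178 and 448 on chow against 399, 345 and 580 on high fat, with chow library C inside the high fat range.

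Clock and hormone response genes held single separated members. In the clock list of 19 tested genes, 2 were higher and 1 lower with an unadjusted p under 0.05 (all genes tested: 2.3% and 1.97%). The 2 became 1 without chow library A or B or high fat library C. Nr1d1, the repressor REV-ERB alpha, had 91.1, 116 and 12.7 normalized counts on chow and 398, 251 and 385 on the high fat diet, its relative Nr1d2 156, 127 and 124 on chow against 175, 244 and 258 on high fat, and Bhlhe40, a repressor of the same clock, 1202, 1254 and 1568 on chow against 735, 891 and 839 on high fat. None overlapped (log2 change 2.68, SE 0.70, 0.72, SE 0.31, and -0.70, SE 0.19; limma adjusted p 0.998 for Nr1d1). Other clock outputs such as Dbp (21.6, 23.3 and 36.6 on chow against 108, 16.6 and 107 on high fat) and Per1 (82, 78 and 70.4 on chow against 61.7, 38.8 and 119 on high fat) overlapped. The labels used here give no hour of tissue collection. Of 13 tested genes of the glucocorticoid response list, 2 were higher and 1 lower with an unadjusted p under 0.05, and the median was -0.11. Fkbp5, a glucocorticoid target, was lower in every high fat library (481, 402 and 556 on chow against 267, 262 and 254 on high fat), and Tsc22d3, another such target, overlapped (4291, 4767 and 4408 on chow against 5388, 3495 and 4414 on high fat).

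Antioxidant and retinoid genes likewise lay on both sides. Of 24 tested antioxidant genes, 4 were higher and 2 lower with an unadjusted p under 0.05 (all genes tested: 2.3% higher and 1.97% lower). With 1 library left out the higher numbered 2 (without high fat library C) to 5 and the lower 0 (without high fat library A) to 1. Prdx6, a peroxiredoxin, had 1310, 1522 and 1910 normalized counts on chow against 2254, 2107 and 2069 on the high fat diet, and the groups did not overlap. Aldh1a1, which makes retinoic acid, had 134, 98.6 and 151 on chow against 267, 252 and 245 on high fat, and Rbp4, the retinol carrier, 112, 158 and 214 on chow against 504, 299 and 288 on high fat, again higher in each high fat library. The retinol receptor Stra6 was lower in each high fat library (30.7, 55.6 and 128 on chow against 3.74, 23.6 and 8.89 on high fat). Of 24 lysosome and proton pump genes 21 had a positive log2 change and 4 an unadjusted p under 0.05, with a median of 0.25; the 4 became 0 without high fat library A and 2 without chow library A.

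Glucose and regional genes gave few separated values. Of 30 tested glycolysis and hypoxia genes, 2 were higher and 1 lower with an unadjusted p under 0.05 (all genes tested: 2.3% and 1.97%). Their median was 0.11. Of 22 tested regional transcription factors, 1 was higher and 3 lower by that threshold. The median of the regional list was 0.19 (-0.18 to 0.37 over the 21 alternatives). Slc2a1, the main endothelial glucose transporter, had 574, 623 and 646 normalized counts on chow and 352, 220 and 479 on the high fat diet. Nkx2-3, a transcription factor of gut and mesentery vessels, had 992, 1187 and 1094 on chow against 561, 801 and 723 on high fat, and the homeobox gene Meis1 118, 105 and 173 on chow against 23.4, 77.6 and 55.3 on high fat. All 3 genes were lower in every high fat library (log2 change -0.88, -0.66 and -1.45), and none passed. Col15a1, a basement membrane collagen, was lower as well (722, 863 and 614 on chow against 314, 477 and 359 on high fat).

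Signals between adipocytes, matrix and endothelium were measured in other lists. The leptin receptor Lepr had 1149, 1193 and 1763 normalized counts on chow against 949, 1265 and 1145 on the high fat diet, and Cdh13, T-cadherin, which binds adiponectin, 1650, 1846 and 1943 on chow against 3029, 2680 and 1958 on high fat. Cdh13 was higher in each high fat library. Of 27 tested collagen and basement membrane genes, 1 was higher and 2 lower with an unadjusted p under 0.05 (all genes tested: 2.3% and 1.97%). Col18a1, the precursor of endostatin, was the higher one (34.2, 69 and 107 on chow against 265, 115 and 125 on high fat). Gata3, a transcription factor of the regional list, had 9.11, 9.86 and 31 on chow against 72, 36 and 58.3 on high fat, again with every high fat library above chow. The interferon list had 1 of 32 tested members with an unadjusted p under 0.05, Ifit3 (1709, 2090 and 1264 on chow against 2426, 2811 and 2123 on high fat), and the cell cycle marker Mki67 overlapped (13.7, 7.17 and 155 on chow against 41.2, 23.6 and 144 on high fat).

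Lists of the respiratory chain and of neighbouring tissue held few separated members. None of 32 nuclear-encoded respiratory chain genes had an unadjusted p under 0.05 (median 0.05), and all 15 mitochondrially encoded genes had a negative log2 change, none with an unadjusted p under 0.05. Chow library A was high, with 20.6% of its reads in these genes against 5.67% to 11.5% in the other mesentery libraries. Pancreas genes summed to 792980, 592130 and 131340 normalized counts on chow against 351720, 343890 and 185800 on the high fat diet, and none of 29 had an unadjusted p under 0.05. Among 19 tested fibroblast genes 1 was lower with an unadjusted p under 0.05 (all genes tested: 1.97% lower). Among 12 tested mesothelial genes 2 were higher without overlap (all genes tested: 4.39%). Fibroblast sums were 10763, 12831 and 17520 on chow against 9134, 8748 and 16433 on high fat, and mesothelial sums 1274, 686 and 641 on chow against 617, 850 and 1239 on high fat. The diets overlapped in each of these sums, and their part in the gene values was not tested.

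Outside the lists, genes were named by a rule: unadjusted p under 0.05, no overlap, a mean of at least 100 normalized counts in the higher group, and the 12 largest log2 changes in each direction out of 295 higher and 271 lower genes. Besides Lep, Pck1, Jchain and Atp6v0d2 the higher set held the myeloid receptors Cd300ld (10.2, 0 and 0 normalized counts on chow against 709, 38.8 and 139 on the high fat diet) and Cd300c2 (1.14, 4.48 and 22.5 on chow against 193, 92.9 and 241 on high fat), and the Fc receptor-like gene Fcrls (1.14, 2.69 and 0 on chow against 33.7, 31.9 and 394 on high fat). High fat library A or C was the highest in each. Igsf6 (6.83, 6.27 and 11.3 on chow against 269, 58.2 and 129 on high fat), Lpxn (3.42, 3.58 and 35.2 on chow against 172, 61 and 337 on high fat), Susd3 (2.28, 11.6 and 5.63 on chow against 89.8, 29.1 and 234 on high fat), Rasl12 (38.7, 11.6 and 1.41 on chow against 209, 63.8 and 109 on high fat) and the antibody segment Igkv13-85 (1.14, 0.896 and 0 on chow against 10.3, 4.16 and 830 on high fat) completed it.

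After Cyp1a1 and Fasn the lower set held Wdr90, a centriole gene, with 140, 153 and 155 normalized counts on chow against 39.3, 29.1 and 27.7 on the high fat diet, and Chac1, which degrades glutathione under stress, with 87.7, 80.6 and 153 on chow against 53.3, 18 and 20.7 on high fat. Wdr90, annotated here with the transcript type retained intron, had close values on chow and ran from 27.7 to 39.3 on high fat (log2 change -2.20, SE 0.46, limma adjusted p 0.778, DESeq2 0.00345). Nr4a1, Nr4a2 and Meis1 are given above. The others were Rbm15 (121, 114 and 124 on chow against 18.7, 38.8 and 73.1 on high fat), Dcbld2 (116, 103 and 142 on chow against 34.6, 31.9 and 72.1 on high fat), Utp20 (106, 134 and 146 on chow against 33.7, 40.2 and 84 on high fat), the nuclear pore gene Nup155 (207, 219 and 321 on chow against 91.7, 58.2 and 152 on high fat) and the receptor Clec12b (322, 218 and 273 on chow against 108, 155 and 69.2 on high fat).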

How the data were processed

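Reads were aligned and counted by the authors with STAR 2.7.9a and featureCounts (Subread) on mm39, and normalized with DESeq2 1.34.0, per the submitters' processing notes. The deposited values are a signal, gene counts divided by 1 size factor a library, and whole reads were recovered from the steps of 100% of values (tolerance 0.001). The filter was a mean of at least 10 normalized counts over the 6 mesentery libraries, and log2(value + 1) was tested with limma 3.58.1 (mean-variance trend, two-sided, Benjamini-Hochberg adjustment, R 4.3.3). A fold change on that scale understates the change of low genes. The tissue difference was an interaction term over all 12 libraries. edgeR 4.0.16 and DESeq2 1.42.0 ran on the recovered reads as alternatives, and 2310 genes had no adjusted p in DESeq2. The code was tested on simulated data. Members and gene lists were chosen with earlier results of these data known. Named genes were drawn from those that passed, the first 4 members and up to 8 members with the smallest p of each list, and the 12 largest separated changes in each direction; the last skipped pseudogenes, predicted genes and clone names. A gene named beyond these was chosen after its values were seen. Motifs were searched on both strands of 250 bases before each RefSeq start (GRCm38.p6). 1 member of the PPAR list is counted but not reported here by its values.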

Additional observations from a re-analysis of the deposited data

Results flagged for a closer look

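The diet effect on Kcnj8 differed between the tissues by an interaction test over all 12 libraries: the log2 change in epididymal fat minus that in mesentery was -3.68 (SE 0.35, limma adjusted p 0.00192). Kcnj8 was higher on the high fat diet in 3 of 3 mesentery libraries and lower in 3 of 3 epididymal libraries. Fewer Kcnj8-expressing cells and less Kcnj8 RNA per cell cannot be told apart in these samples.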

How the results depend on the processing

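The 1 gene that passed in mesentery became 2 with libraries rescaled to the same total, 4 with all 12 libraries in 1 fit, 0 with libraries numbered 50 to 53 only, 0 with no mean-variance trend and 47 in DESeq2; leaving out 1 library gave 1 to 5, with 5 when chow library C was left out (Cyp1a1, Ccl21a, E030026E10Rik, Fcer1g and Il1b). The 941 genes with an unadjusted p under 0.05 became 1596 with libraries numbered 50 to 53 only and 523 to 2141 with 1 library left out: 540 without chow library A, 2141 without chow library C and 523 without high fat library A. With chow library C left out, 706 of the 941 were kept. The causes were not tested.

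With the title letter as replicate block, 1 gene passed and 1241 had an unadjusted p under 0.05. Deviations from the group means correlated at -0.144, 0.137 and 0.0633 for libraries of the same letter, and at -0.204 to 0.212 for other letters. With 3 libraries a group, these values cannot decide whether the letters pair the libraries. For the difference between tissues, the library number as replicate block gave 2 genes and libraries numbered 50 to 53 only gave 11, against 1.

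The median log2 change of the capillary endothelium list turned to -0.0558 with libraries numbered 50 to 53 only, and with 1 library left out it ran from -0.0105 (high fat library B) to 0.275. The median log2 change of the mesothelium list ran from -0.0383 (chow library B left out) to 0.958. Each group held 3 pools, of 8348897 to 18787039 reads each.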
